A study of Homo sapiens with 36 samples.

Results

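The genes described here build, bind or regulate the actin and tubulin cytoskeleton. They were chosen by symbol from the deposited count table: 37 of its 36601 genes, of which 28 are actin-linked and 9 are tubulins. The actin-linked genes comprise the actins ACTB and ACTG1, crosslinking and adhesion proteins, tropomyosins and non-muscle myosin II subunits. They also comprise transgelins, calponins, caldesmon, the turnover proteins CFL1 and PFN1, the transcription factor SRF and its binding partner FHL2. The tubulins comprise 3 alpha-tubulin and 6 beta-tubulin genes. HEK293 is an established human line of embryonic kidney origin. Its cells had received a guide library and a donor that adds HaloTag, a protein tag that binds its ligands covalently, to endogenous genes. HyT36 is a hydrophobic HaloTag ligand that was meant to destabilise the tagged protein, and the study asked which responses follow. Bulk polyA RNA was sequenced in 12 libraries: clone 4 with 25 µM HyT36, clone 4 with the vehicle DMSO, clone 5 with 25 µM HyT36 and clone 5 with DMSO, with 3 libraries in each group. Each line is a single tagged clone. The sources used here name neither the tagged protein of a clone nor the exposure time of the bulk cultures. No untagged cells are among these 12 libraries, so effects of HyT36 that need the tag and effects that do not cannot be told apart.

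SRF is a transcription factor that binds the CArG box, a short A and T rich element, in the promoters of many actin cytoskeleton genes and in its own. Its cofactors MRTFA and MRTFB are held back by actin monomers, so that actin assembly frees them to switch on SRF targets, which include actin, vinculin and calponin genes. Tubulin mRNA is controlled differently: free tubulin dimers trigger the decay of tubulin mRNA during translation, through TTC5, SCAPER and CNOT11. Outside muscle, the actins ACTB and ACTG1 and non-muscle myosin II take the place of the muscle isoforms, and alpha- and beta-tubulin pair into the dimers that build microtubules.

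CArG boxes were searched for in RefSeq promoter windows (GRCh38.p14) that run from 250 bases before to 50 bases after a start site, on both strands; no other motif was searched. Of the 25 actin-linked genes with an entry, 7 held a match (28%), against 0 of 9 tubulins and 438 of 27305 genes in the whole table (1.6%). By window, 9 of 47 held a match in actin-linked genes (19.1%) and 454 of 35116 in the whole table (1.29%). A match in overlapping windows of a gene counts in each of them. It is listed once below, with the distance to 1 start site. The actin-linked genes were chosen to include SRF and known SRF targets, so the choice itself favours matches. ACTB, MYL9 and TAGLN have no entry. The sequences below are those of the genes that passed a test of a ligand response, and of ACTG1, which did not. Each is read 5′ to 3′ on the strand of its gene, and capitals mark the CArG box, whose first base sets the distance given.
SRF, chr6:43171229-43171258, plus strand, 30 bases before the start site: ctggggctcaCCATATAAGGagcggcctcg
SRF, chr6:43171249-43171278, plus strand, 10 bases before the start site: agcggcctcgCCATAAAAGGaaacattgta
FHL2, chr2:105399091-105399120, minus strand, 59 bases before an internal start site: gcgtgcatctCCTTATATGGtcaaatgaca
FHL2, chr2:105438595-105438624, minus strand, 101 bases before a start site near the 5′ end of the gene: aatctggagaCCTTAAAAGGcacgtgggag
CNN2, chr19:1026509-1026538, plus strand, 89 bases before the start site: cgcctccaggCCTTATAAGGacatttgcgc
FLNA, chrX:154374709-154374738, minus strand, 94 bases before the start site: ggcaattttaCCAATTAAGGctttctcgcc
ACTG1, chr17:81512874-81512903, minus strand, 94 bases before the start site: ggaaagatcgCCATATATGGacatgttctg
SRF and FHL2 each held a pair of matches, in SRF within 1 window and in FHL2 in separate windows. ACTN1 (171 bases before an internal start site) and TPM4 (173 bases before its start site) also held 1. VCL had no match in its windows, which says only that these letters are not there. A match is a description of the sequence, not a measured binding site.

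The libraries held 22853946 to 28635511 gene counts each. Markers of HEK293 such as VIM, CDH2 and LIN28B were present in every library, whereas NEFL and NEFM had 5 reads each over all 12. Summed levels were 6.51 to 10.45 CPM for the fibroblast list, mostly COL1A1 (4.69 to 6.73 CPM), 18.0 to 25.7 CPM for the smooth muscle list, mostly SMTN (16.8 to 24.2 CPM), and 0.292 to 0.785 CPM for the blood list. Of their more specific members DCN had 3 reads over all libraries, DES 4, and CD3E and HBB 0. Epithelial markers set libraries apart. Their summed level was 73.7 to 126 CPM (gene counts relative to the library total, scaled by the trimmed mean of M-values, TMM) in 6 libraries and 19.0 to 28.3 CPM in the other 6. The high set comprised clone 4 HyT36 replicates 2 and 3, clone 4 DMSO replicate 1 and all 3 clone 5 DMSO libraries. KRT19, a simple-epithelium keratin, spanned 32.2 to 69.9 CPM in the high set and 0.0419 to 0.235 CPM in the low set, where GRHL2 was at 0 in every library. In clone 5 the sets coincide with the ligand, so that the ligand and whatever sets these libraries apart cannot be told apart there by the design. In clone 4 the sets cross the groups. In bulk RNA, fewer cells of a type and less RNA per cell cannot be told apart.

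Of the 37 genes, 36 passed the filter on low counts. CNN1, a smooth muscle calponin, did not, with 0 to 4 reads in a library. TAGLN, the smooth muscle transgelin, passed with 9 to 39 reads in a library. Guide features named for members numbered 293, for ACTB, ACTG1, ACTN1, TUBA1A, TUBA1B, TUBA1C and TUBB4B, and none had a read in any library. Near-identical copies (ACTB and ACTG1, the TUBA1 genes, TUBB2A and TUBB2B, MYL12A and MYL12B) may lose shared reads to the ambiguous and multimapping classes, so the split between them is uncertain. Levels are compared below between libraries and not between genes.

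In clone 4, HyT36 lowered the transcription factor gene SRF, its binding partner FHL2, the calponin CNN2 and the focal adhesion gene VCL, and raised 1 alpha-tubulin, TUBA1A. By the edgeR quasi-likelihood test with Benjamini-Hochberg adjustment over all 14892 genes tested, 5 of the 36 members passed an adjusted p of 0.05, 1 higher and 4 lower. Over all genes 5.57% passed (2.21% higher and 3.36% lower), and among genes at 100 CPM or more on average, a class chosen after the values were seen, 8.92%. The HyT36 and DMSO libraries did not overlap in 13 of 36 members, 4 higher and 9 lower, against 23.5% of all genes (11.7% higher and 11.8% lower). The changes were small: the largest fall among the 5 was by 23.1%.

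SRF had 91.5, 98.4 and 95.8 CPM in clone 4 with HyT36, against 115, 119 and 120 CPM in clone 4 with DMSO. Every HyT36 library lay below every DMSO library. The mean was 95.2 ± 3.45 CPM with HyT36 and 118 ± 2.43 CPM with DMSO (SD, n = 3 each), a fall by 19.4% (log2 fold change -0.31 ± 0.04, SE; edgeR adjusted p = 9.6e-07). SRF passed under all 22 alternative settings tried, with log2 fold changes of -0.39 to -0.25. The gene spans 43171269 to 43181506 on chromosome 6 (GRCh38.p14).

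FHL2 encodes a LIM-domain protein that is both a target and a binding partner of SRF. It had 16.6, 17.1 and 15.8 CPM in clone 4 with HyT36, against 20.2, 23.4 and 20.8 CPM with DMSO. The groups did not overlap, and FHL2 fell by 23.1% (log2 fold change -0.38 ± 0.07, SE; edgeR adjusted p = 7.4e-04). Within the libraries with high epithelial markers, where only 1 library is left for clone 4 with DMSO and its spread is taken from the other groups, its log2 fold change was -0.29 and did not pass (edgeR adjusted p = 0.093).

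CNN2, a calponin found outside smooth muscle, had 219, 218 and 215 CPM in clone 4 with HyT36, against 236, 242 and 245 CPM with DMSO. Here too the groups stood apart, and CNN2 fell by 9.70% (log2 fold change -0.15 ± 0.04, SE; edgeR adjusted p = 0.0090). The call was lost within the low epithelial set (adjusted p = 0.30, edgeR), within the high set (0.12), without clone 4 HyT36 replicate 3 (0.087) and without clone 4 DMSO replicate 3 (0.073).

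VCL encodes vinculin, which links integrin adhesions to actin. It had 270, 261 and 264 CPM in clone 4 with HyT36, against 288, 292 and 284 CPM with DMSO. The groups did not overlap, but the fall of 0.12 on the log2 scale (SE 0.04) lay close to the threshold (edgeR adjusted p = 0.039) and did not pass in 12 of 22 alternatives (adjusted p up to 0.62).

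TUBA1A, an alpha-tubulin prominent in developing neurons, had 150, 138 and 145 CPM in clone 4 with HyT36, against 116, 132 and 131 CPM with DMSO. All 3 HyT36 libraries were higher, by 14.3% on average (log2 fold change 0.19 ± 0.05, SE; edgeR adjusted p = 0.0091). The call was lost within the low epithelial set (adjusted p = 0.15, edgeR), without clone 4 HyT36 replicate 1 (0.074) or 3 (0.056), and without clone 4 DMSO replicate 1 (0.058). The sum of TUBA1A, TUBA1B and TUBA1C did not pass (log2 fold change 0.05, edgeR adjusted p = 0.70).

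The other 31 tested members did not pass in clone 4. ACTB, the beta-actin gene, had 4081, 4133 and 4159 CPM with HyT36, against 4403, 4480 and 4314 CPM with DMSO. Its groups did not overlap, with a log2 fold change of -0.09 ± 0.03 (SE) and an edgeR adjusted p of 0.11. ACTG1, the gamma-actin gene, averaged 3992 ± 47.4 CPM with HyT36 and 4231 ± 108 CPM with DMSO (SD, n = 3 each), also without overlap (-0.08 on the log2 scale, edgeR adjusted p = 0.17). MYH9, the heavy chain of non-muscle myosin IIA, and CALD1, the actin-binding caldesmon, had log2 fold changes of -0.09 each (edgeR adjusted p = 0.17 and 0.22). TUBB, the beta-tubulin gene with the most reads here, had 1734, 1706 and 1687 CPM with HyT36, against 1733, 1787 and 1801 CPM with DMSO, and these groups overlapped. Within the high epithelial set, the log2 fold changes of TUBA1C and TUBB3 were 0.20 and 0.18, against 0.03 and 0.05 over all libraries. That set leaves only replicate 1 of clone 4 with DMSO, the lowest of its group in both genes. It had 296 CPM of TUBA1C, against 354 and 350 in replicates 2 and 3, and 318 CPM of TUBB3, against 370 and 347. Among the 4 tropomyosins the log2 fold changes ran from -0.04 in TPM1 to 0.04 in TPM3. TAGLN had the largest estimate, -0.51, with a 95% interval of -1.17 to 0.15.

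**Figure D1:**
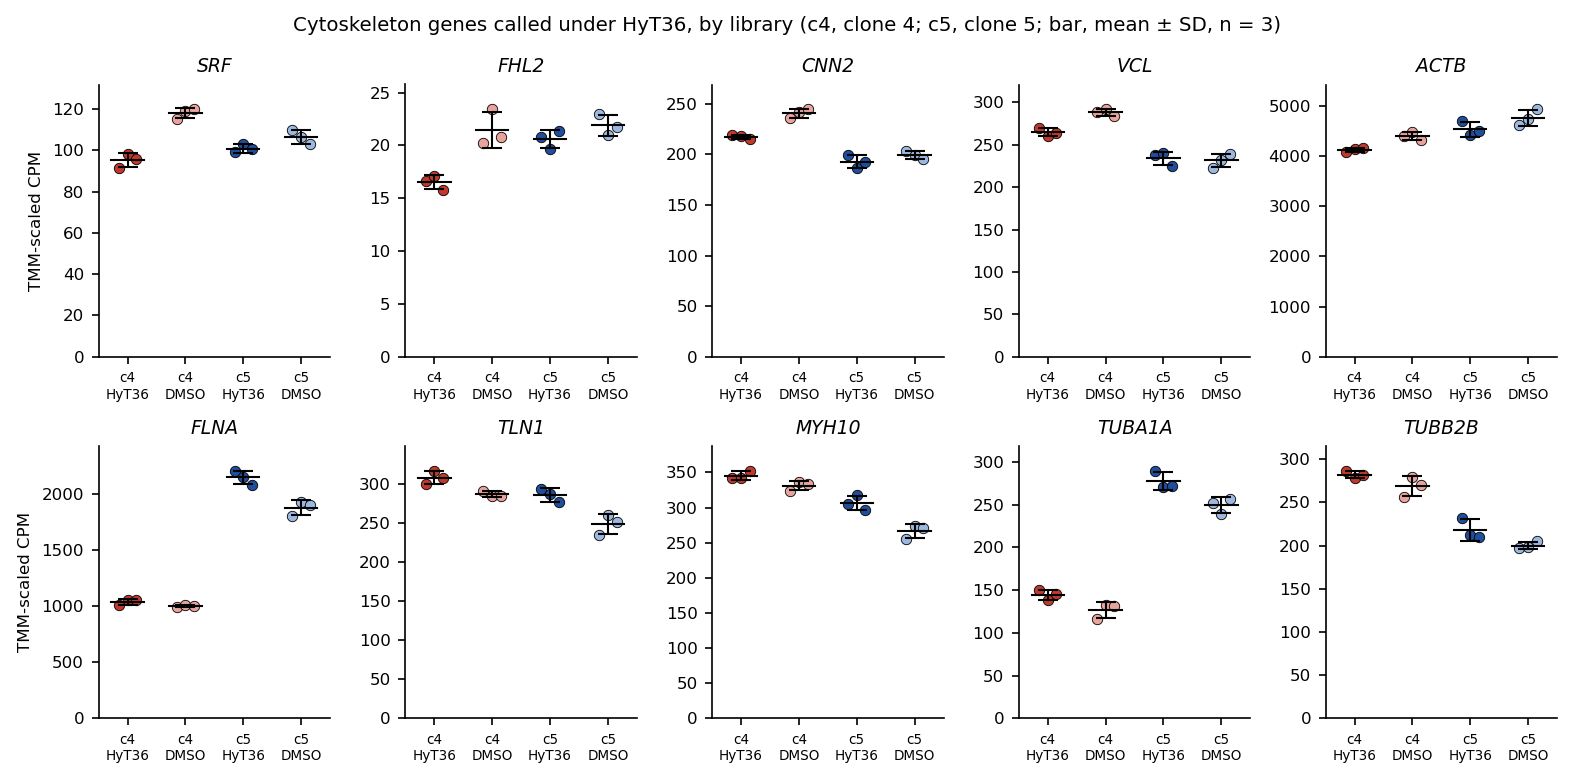
TMM-scaled CPM of the 10 genes that passed in a ligand response or in the mean of both responses, in each of the 12 libraries (points), with the mean and SD of each group (bars, n = 3). SRF in clone 4 sits at 91.5 to 98.4 CPM with HyT36 and at 115 to 120 CPM with DMSO, and FLNA is higher in all clone 5 libraries than in any clone 4 library.

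In clone 5, FLNA and TLN1, which anchor actin to the membrane and to adhesions, were higher in the HyT36 than in the DMSO libraries. So were the myosin heavy chain gene MYH10 and the tubulins TUBA1A and TUBB2B. The ligand and the epithelial split coincide in these libraries and cannot be told apart. SRF and FHL2 did not pass. Again 5 of 36 members passed, all 5 of them higher, where 8.19% of all genes passed (3.35% higher and 4.83% lower) and 15% of those at 100 CPM or more. The groups did not overlap in 11 members, 10 higher and 1 lower, against 25.1% of all genes (11.4% higher and 13.8% lower). Over these libraries 12 of 13 tested epithelial markers had a log2 fold change below 0, with a median of -1.82, and 1 passed. Their part in the rises was not tested beyond the values given with a covariate below.

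FLNA encodes filamin A, which crosslinks actin filaments into networks. It had 2204, 2148 and 2081 CPM in clone 5 with HyT36, against 1801, 1925 and 1901 CPM with DMSO. Every HyT36 library was above every DMSO library, a rise of 14.3% (log2 fold change 0.19 ± 0.03, SE; edgeR adjusted p = 1.7e-04). TLN1 encodes talin, which joins integrins to actin and vinculin. It had 294, 288 and 277 CPM with HyT36, against 235, 260 and 252 CPM with DMSO, again with no overlap. Talin mRNA rose by 14.9% (log2 fold change 0.20 ± 0.04, SE; edgeR adjusted p = 4.6e-04).

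MYH10, the heavy chain of non-muscle myosin IIB, had 306, 317 and 297 CPM in clone 5 with HyT36, against 255, 273 and 270 CPM with DMSO. Its groups did not overlap and it rose by 15.1% (log2 fold change 0.20 ± 0.04, SE; edgeR adjusted p = 2.4e-04). FLNA, TLN1 and MYH10 passed in all 20 alternatives tried, among them the fit with the epithelial split as a covariate. In that fit the clone 5 response is estimated from the covariate's effect in clone 4, since the split and the ligand coincide in clone 5.

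TUBA1A had 290, 271 and 271 CPM in clone 5 with HyT36, against 252, 239 and 257 CPM with DMSO. The groups did not overlap (log2 fold change 0.15 ± 0.04, SE; edgeR adjusted p = 0.027). With the epithelial covariate its log2 fold change was 0.02 (edgeR adjusted p = 0.94), and leaving out clone 5 HyT36 replicate 1 or 2 or clone 5 DMSO replicate 1 or 2 also ended the call. TUBB2B, a beta-tubulin best known from neurons, had 232, 213 and 210 CPM with HyT36, against 197, 198 and 205 CPM with DMSO (log2 fold change 0.13 ± 0.04, SE; edgeR adjusted p = 0.042). All 3 HyT36 libraries were higher, and with the covariate the log2 fold change was 0.06 (edgeR adjusted p = 0.67). TUBB2B did not pass in 7 of 19 alternatives. Besides the covariate these were the replicate block and leaving out clone 4 HyT36 replicate 1 or 2. Leaving out clone 5 HyT36 replicate 1, or clone 5 DMSO replicate 1 or 2, also ended the call of TUBB2B. Summed with TUBB2A it did not pass (0.12 on the log2 scale, edgeR adjusted p = 0.060).

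SRF had 99.0, 103 and 101 CPM in clone 5 with HyT36, against 110, 106 and 103 CPM with DMSO. The groups did not overlap, since 103 CPM with HyT36 lay just under the lowest DMSO library, but the log2 fold change of -0.08 ± 0.04 (SE) did not pass (edgeR adjusted p = 0.31, 95% interval -0.16 to 0.01). FHL2 had 20.8, 19.7 and 21.4 CPM with HyT36, against 23.0, 21.0 and 21.8 CPM with DMSO, with overlap (-0.09, edgeR adjusted p = 0.56). CNN2 and VCL had log2 fold changes of -0.05 and 0.02 (edgeR adjusted p = 0.52 and 0.86).

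ACTB had 4700, 4415 and 4492 CPM in clone 5 with HyT36, against 4613, 4728 and 4932 CPM with DMSO, and these groups overlapped (-0.07, edgeR adjusted p = 0.24). MYH9 averaged 602 ± 10.7 CPM with HyT36 and 559 ± 20.8 CPM with DMSO (SD, n = 3 each), without overlap and just outside the threshold (0.11, edgeR adjusted p = 0.057). MYH9 passed in some alternatives, among them DESeq2 (adjusted p = 0.0067), limma-voom (0.037) and edgeR with each clone fitted alone (0.033). The alpha-actinins ACTN1 and ACTN4, which bundle actin filaments, had log2 fold changes of 0.10 each, without overlap between groups (edgeR adjusted p = 0.13 and 0.11). ACTN4 passed with DESeq2 (adjusted p = 0.035). TUBB had 1692, 1629 and 1637 CPM with HyT36 and 1633, 1629 and 1621 CPM with DMSO (0.02, edgeR adjusted p = 0.78). TUBA1B did not pass (0.14, edgeR adjusted p = 0.42), but did without the filter on low counts (edgeR, 0.011) and with each clone fitted alone (edgeR, 0.043).

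**Figure D2:**
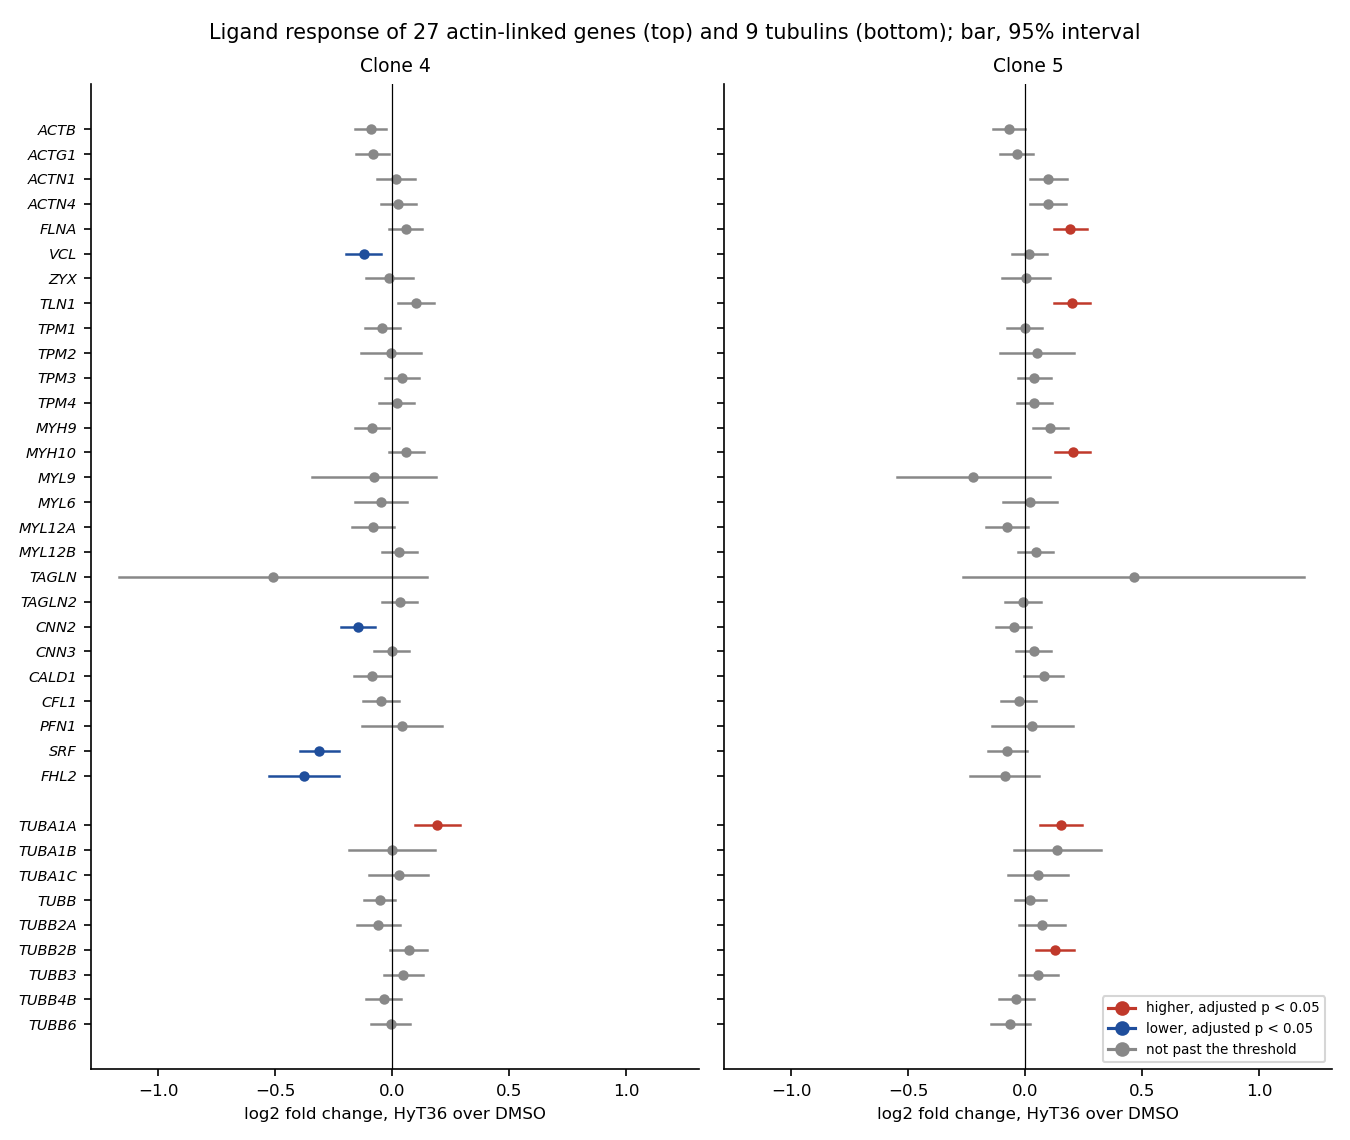
Log2 fold change of HyT36 over DMSO with its 95% interval for the 36 tested genes, in clone 4 (left) and clone 5 (right), with actin-linked genes above and tubulins below. In clone 4 the actin-linked genes that passed all lie below 0 and in clone 5 all lie above 0, while TUBA1A lies above 0 in both clones.

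Averaged over both clones, 9 of 36 members passed, against 14.7% of all genes (6.65% higher and 8.03% lower) and 26.7% of those at 100 CPM or more. The 5 that passed as higher were FLNA (0.12 on the log2 scale), TLN1 (0.15), MYH10 (0.13), TUBA1A (0.17) and TUBB2B (0.10). The 4 that passed as lower were SRF (-0.19, edgeR adjusted p = 4.9e-06), FHL2 (-0.23, adjusted p = 0.0013), CNN2 (-0.10, adjusted p = 0.0069) and ACTB (-0.08, adjusted p = 0.016). ACTB fell by 5.46% on average, and did not pass in 6 of 18 alternatives. Summed with ACTG1 the average log2 change was -0.07 (edgeR adjusted p = 0.034). TUBB2B did not pass with the epithelial covariate (edgeR adjusted p = 0.085) or without clone 5 HyT36 replicate 1 (0.059).

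The responses of the clones were compared directly as the clone 5 response minus the clone 4 response. No member passed by edgeR, where 0.302% of all genes did (0.128% higher and 0.175% lower in clone 5, and 0.273% of those at 100 CPM or more), and 7 of 36 members had an unadjusted p under 0.05, as did 8% of all genes. DESeq2 called 2 members and limma-voom 0. SRF came closest, with a difference of 0.23 ± 0.06 (SE; edgeR adjusted p = 0.071, 95% interval 0.12 to 0.35). It passed with DESeq2 (adjusted p = 0.026), without the filter on low counts (edgeR, 0.027), with near-identical copies summed (edgeR, 0.048) and without clone 4 DMSO replicate 1 (edgeR, 0.019). MYH9 differed by 0.20 ± 0.05 (SE; edgeR adjusted p = 0.10) and passed with DESeq2 (adjusted p = 0.0095), without the filter on low counts (edgeR, 0.046), without clone 4 DMSO replicate 1 (edgeR, 0.015) and without clone 5 DMSO replicate 2 (edgeR, 0.041). The other 5 were FHL2 (0.29), CALD1 (0.17), MYH10 (0.14), VCL (0.14) and FLNA (0.14), all actin-linked and with a higher estimate in clone 5. The ligand and the epithelial split coincide in clone 5 but not in clone 4. A different response of the clones and the split therefore cannot be told apart by the design in these values.

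Both clones gave estimates of the same sign in 24 of 36 members, or 66.7%, and in 63.7% of all genes. The estimate was higher in clone 5 than in clone 4 in 29 of 36 members, or 80.6%, and in 47.5% of all genes. This held in 23 of 27 actin-linked genes and 6 of 9 tubulins. Here too, the ligand and the epithelial split coincide in clone 5 and cannot be told apart. Genes are not independent replicates, and no test was made of these shares.

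Actin-linked genes and tubulins were set side by side by their counts and medians, with no test between them. In clone 4, 4 of 27 actin-linked genes passed (14.8%), all lower, and 1 of 9 tubulins (11.1%), higher. The share was 5.57% over all genes and 8.92% over those at 100 CPM or more. The median log2 fold change was -0.04 over actin-linked genes, -0.0026 over tubulins and 0.0027 over all genes. In clone 5, 3 of 27 actin-linked genes (11.1%) and 2 of 9 tubulins (22.2%) passed, all higher. There the share was 8.19% over all genes and 15% over those at 100 CPM or more. The clone 5 medians were 0.03 over actin-linked genes, 0.06 over tubulins and -0.0045 over all genes. The median size of the change, whatever its sign, was 0.06 over actin-linked genes and 0.05 over tubulins in clone 4, and 0.05 and 0.06 in clone 5. Over all genes it was 0.09 in clone 4 and 0.10 in clone 5. Of the 7 genes with a CArG match, SRF, FHL2 and CNN2 fell in clone 4, FLNA rose in clone 5, and ACTG1, ACTN1 and TPM4 passed in neither. VCL in clone 4, TLN1, MYH10 and TUBB2B in clone 5, and TUBA1A in both clones passed without a match. Whether a match goes with a response was not tested.

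With DMSO alone the clones differed far more than either clone did with the ligand. Clone 5 had higher FLNA, TUBA1A and TUBB3 than clone 4, and lower TPM2, MYL9, CALD1, TUBB6 and TUBB2A. Of 36 members 26 passed, 8 higher and 18 lower in clone 5, where 55.5% of all genes passed (27.3% higher and 28.2% lower, and 64.6% of those at 100 CPM or more). The same 26 members had libraries of the clones that did not overlap, against 59.8% of all genes (29.8% higher and 29.9% lower). The DMSO libraries are the same as those used in the responses above. All 3 clone 5 DMSO libraries and 1 of 3 clone 4 DMSO libraries belong to the high epithelial set.

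FLNA had 1801, 1925 and 1901 CPM in clone 5 with DMSO, against 990, 1007 and 998 CPM in clone 4 with DMSO. It was 1.88-fold higher (log2 difference 0.91 ± 0.03, SE; edgeR adjusted p = 2.7e-24). TPM2, a tropomyosin of the contractile filament, had 15.5, 14.6 and 13.4 CPM in clone 5, against 46.8, 48.5 and 44.0 CPM in clone 4 (-1.68 ± 0.07, SE; edgeR adjusted p = 5.4e-23). The other tropomyosins stayed close: TPM1 was 0.13 higher on the log2 scale, and TPM3 and TPM4 did not pass at 0.01 each.

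The transgelins, the calponins and the caldesmon gene CALD1 were lower in clone 5 in all 5 tested genes, where 28.2% of all genes passed as lower. CALD1 had 95.02, 96.0 and 97.6 CPM in clone 5, against 166, 163 and 162 CPM in clone 4 (log2 difference -0.77 ± 0.04, SE; edgeR adjusted p = 8.0e-20). TAGLN2, the transgelin found outside smooth muscle, had 306, 296 and 299 CPM in clone 5, against 428, 473 and 446 CPM in clone 4 (-0.58 ± 0.04, SE; edgeR adjusted p = 6.8e-17). CNN2 and CNN3 differed by -0.27 and -0.25 and TAGLN by -1.14, the last at no more than 1.65 CPM in any of these libraries.

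Among myosin II genes, MYL9, the regulatory light chain of contractile cells, averaged 3.07 ± 0.418 CPM in clone 5 and 8.15 ± 1.08 CPM in clone 4 with DMSO (SD, n = 3 each; log2 difference -1.41). MYL6 (-0.41) and MYH10 (-0.31) were lower too, while MYL12A (0.14) and MYL12B (0.12) were higher and MYH9 did not pass (0.01). The adhesion genes ACTN4, VCL and TLN1 were lower (-0.31, -0.32 and -0.21), and ACTN1 and ZYX did not pass. SRF was lower in clone 5 (-0.15 ± 0.04, SE; edgeR adjusted p = 0.0017), whereas FHL2 did not pass (0.03). Within the high epithelial set, which leaves 1 clone 4 DMSO library, the SRF difference did not pass (-0.11, edgeR adjusted p = 0.071).

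The tubulins moved in both directions between the clones, with 7 of 9 past the threshold (77.8%). The share was 55.5% over all genes and 64.6% over those at 100 CPM or more. TUBA1A had 252, 239 and 257 CPM in clone 5 with DMSO, against 116, 132 and 131 CPM in clone 4 with DMSO, and was 1.97-fold higher (log2 difference 0.98 ± 0.05, SE; edgeR adjusted p = 1.9e-18). TUBA1B and TUBA1C did not pass (-0.10 and -0.09), and the summed alpha-tubulins differed by 0.18 (edgeR adjusted p = 0.0048). TUBB3, a beta-tubulin used as a neuron marker, had 551, 541 and 548 CPM in clone 5, against 318, 370 and 347 CPM in clone 4 (0.66 ± 0.04, SE; edgeR adjusted p = 9.4e-17).

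TUBB6 had 184, 185 and 182 CPM in clone 5, against 300, 343 and 315 CPM in clone 4 (log2 difference -0.80 ± 0.04, SE; edgeR adjusted p = 9.0e-20). TUBB2A had 61.9, 64.3 and 64.7 CPM in clone 5, against 101, 105 and 100 CPM in clone 4 (-0.68 ± 0.05, SE; edgeR adjusted p = 8.9e-16). TUBB2B (-0.43), TUBB4B (-0.20) and TUBB (-0.12) were lower as well. TUBB did not pass within the high epithelial set (-0.09, edgeR adjusted p = 0.066). The median size of the clone difference was 0.43 over tubulins, 0.15 over actin-linked genes and 0.25 over all genes, with no test between them. Without clone 4 DMSO replicate 1, PFN1, ZYX, TUBA1B and TUBA1C also passed, all lower in clone 5 (-0.17 to -0.18).

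**Figure D3:**
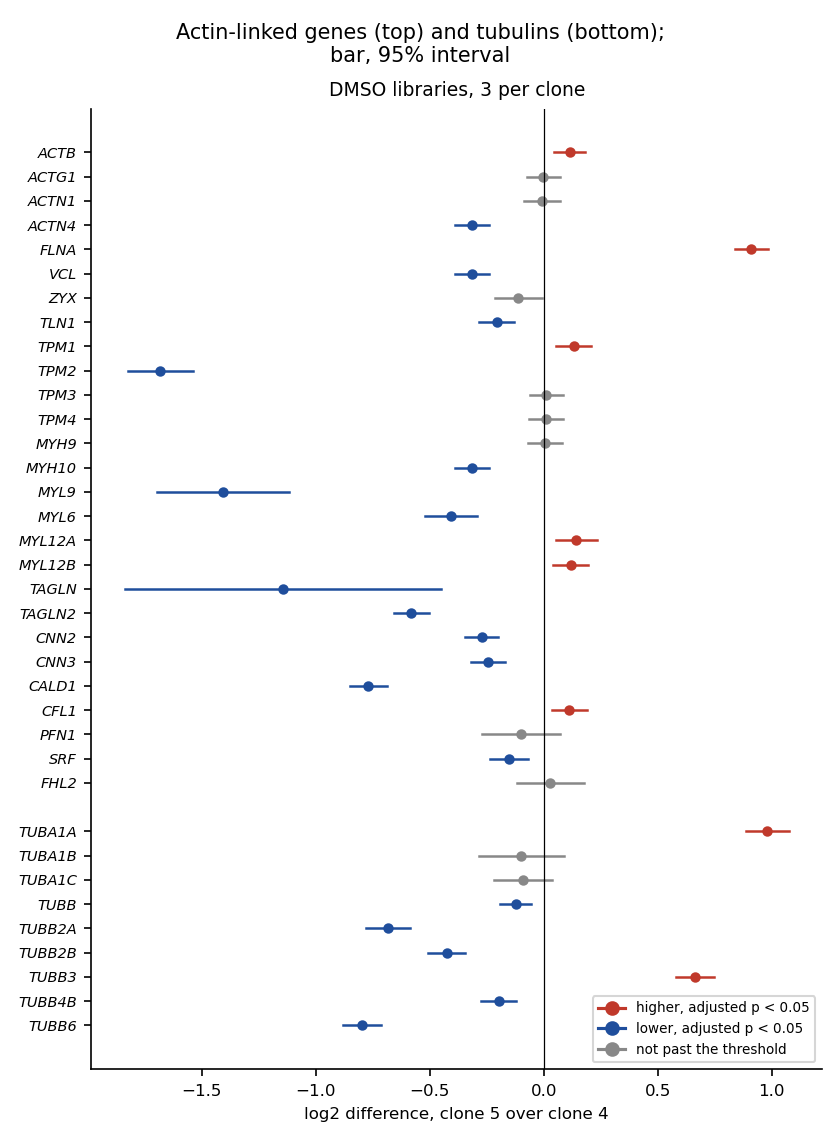
Log2 difference of clone 5 over clone 4 with DMSO, with its 95% interval, for the 36 tested genes, with actin-linked genes above and tubulins below. TUBA1A (0.98) and FLNA (0.91) stand highest, and TPM2 (-1.68) and MYL9 (-1.41) lowest.

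Outside the 37 genes, 4 of 116 other tested genes of these pathways passed in clone 4 (3.45%) and 10 in clone 5 (8.62%), against 5.57% and 8.19% of all genes. Of 16 tested regulators of SRF, 0 passed in clone 4 and 2 in clone 5, the formin DIAPH3 (0.18 on the log2 scale) and the cofilin kinase LIMK2 (-0.22). The cofactor genes MRTFA and MRTFB did not pass in either clone, with log2 fold changes of 0.11 and 0.09 in clone 4 and 0.13 and 0.17 in clone 5. MRTFB passed in the mean of both responses (0.13, edgeR adjusted p = 0.044). Of 13 other tested actin and actin-linked genes listed as SRF targets, 0 passed in either clone or in the mean. Some were low, such as ACTA2 (0.208 to 0.719 CPM) and MYH11 (0.167 to 0.505 CPM), where small changes may go undetected.

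ARPC5L, a subunit of the Arp2/3 complex that branches actin filaments, was the 1 of 9 tested Arp2/3 genes that passed in each clone. It averaged 59.6 ± 0.26 CPM with HyT36 and 68.8 ± 3.9 CPM with DMSO in clone 4, and 53.6 ± 3.4 CPM with HyT36 and 63.0 ± 2.6 CPM with DMSO in clone 5 (SD, n = 3 each). Its log2 fold changes were -0.21 and -0.23 in clones 4 and 5 (edgeR adjusted p = 0.0080 and 0.0023). Of 26 other actin regulators, EZR, which ties actin to the membrane, fell in clone 4 (-0.12). TLN2, the second talin gene, and MSN, a relative of EZR, rose in clone 5 (0.26 and 0.14).

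On the tubulin side, TTC5 did not pass in either clone (0.01 in clone 4 and 0.15 in clone 5). Of 8 tested cofactors and autoregulation genes, TBCC, a tubulin folding cofactor, passed in clone 5 (-0.21), and 0 passed in clone 4. Among 21 microtubule-associated genes, the plus-end binder MAPRE3 fell in clone 4 (-0.44), and MAP4 and CLASP2, which stabilise microtubules, rose in clone 5 (0.12 and 0.16). Of 9 other tubulins, TUBE1, a centriolar tubulin, rose in clone 4 (0.33). Of 14 genes of the CCT chaperonin and prefoldin, which fold actin and tubulin, CCT8 rose (0.12) and PFDN1 fell (-0.21) in clone 5, and 0 passed in clone 4.

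Between the clones with DMSO, 72 of the 116 genes passed (62.1%), against 55.5% of all genes. Of 21 microtubule-associated genes 17 passed, led by VASH1, part of a tubulin detyrosinating enzyme, at 0.353 ± 0.075 CPM in clone 5 and 9.89 ± 0.89 CPM in clone 4 (SD, n = 3 each; log2 difference -4.78). TUBA4A, another alpha-tubulin, averaged 7.10 ± 0.60 CPM in clone 5 and 50.7 ± 3.5 CPM in clone 4 (-2.83). Of 26 other actin regulators 16 passed, 12 of them higher in clone 5, with MSN at 737 ± 22 CPM in clone 5 and 271 ± 8.6 CPM in clone 4 (1.44). TMSB4X, the actin monomer-binding thymosin, averaged 582 ± 37 CPM in clone 5 and 239 ± 2.2 CPM in clone 4 (1.29).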

How the data were processed

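Raw, unnormalized counts of 36601 genes and 22344 guide features in 12 libraries were deposited by the authors as 1 table, per the file headers. Libraries were made from polyA RNA with a NEBNext Ultra II kit, per the labels' protocols. Per the submitters' processing notes, GRCh38 and Cell Ranger 7 were used in the series, without a statement on the bulk data. No aligner, annotation or strand setting is given in the sources used here, so overlapping and antisense genes cannot be told apart. Multimapping reads (2.23 to 2.82% of a library), ambiguous reads (6.75 to 7.15%), other summary entries and guide features stayed out of library sizes and tests. Libraries held 22853946 to 28635511 gene counts, and 24 single-cell and guide samples were not analysed here.

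Counts were fitted with edgeR 4.0.16 under R 4.3.3 (filterByExpr, TMM, prior count 0.125, 1 mean for each of 4 groups over all 12 libraries, robust quasi-likelihood F-test, two-sided, Benjamini-Hochberg over 14892 genes). Standard errors were approximated by dividing the absolute log2 fold change by the root of F. Nothing in the labels says that replicates came from separate cultures, and p-values therefore measure only the spread between these libraries, which may be technical. Replicate libraries differed by more than sampling noise (chi-square per degree of freedom 1.90 to 8.15). The highest values were those of clone 4 DMSO replicate 1 against replicates 2 (8.15) and 3 (7.01), which differed from each other by 2.66. DESeq2 1.42.0, limma 3.58.1 (voom), other scaling, filtering, covariates and left-out libraries were alternatives. The code was tested on simulated counts. Promoter windows and gene positions came from RefSeq (GRCh38.p14) and were matched by symbol. The member genes and all gene lists were chosen with earlier results of these data known. Values in every library are given for members past the threshold in a ligand response, plus SRF, ACTB and TUBB, and for the 8 members with the smallest p between the clones; of other lists, up to 4 genes per comparison with the smallest p, plus MRTFA, MRTFB and TTC5.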

Additional observations from a re-analysis of the deposited data

How the results depend on the processing

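No alternative reversed the direction of a member that passed. In clone 4, 5 members passed, and 2 to 5 did when 1 of the 12 libraries was left out (2 without clone 4 HyT36 replicate 3; 3 without clone 4 HyT36 replicate 1, clone 4 DMSO replicate 1 or clone 4 DMSO replicate 3). Within the low epithelial set, which leaves 1 clone 4 HyT36 library whose spread is taken from the other groups, 2 passed, and within the high set 4 (3 higher and 1 lower). In clone 5, 5 passed, 3 with the epithelial split as a covariate and 3 to 6 with 1 library left out (3 without clone 5 HyT36 replicate 1 or clone 5 DMSO replicate 1). The mean response gave 8 to 11 members with 1 library left out and the clone comparison 24 to 30. For the difference of responses 0 members passed, against 2 with DESeq2, 2 without the filter on low counts, 1 with near-identical copies summed, and 0 to 2 with 1 library left out (2 without clone 4 DMSO replicate 1 and 1 without clone 5 DMSO replicate 2). The cause was not tested. Over all genes, 287 in place of 830 passed in clone 4 within the low set and 1177 within the high set, 776 in place of 1219 in clone 5 with the covariate, and for the difference of responses 244 with the covariate and 169 without the filter in place of 45. Of the genes called, 48.7% were higher in clone 4 and 50.9% in clone 5 with DESeq2, against 39.6% and 40.9% with edgeR. Same-numbered replicates did not deviate together (correlations of -0.54 to -0.25 in clone 4 and -0.042 to -0.0095 in clone 5). For unlike numbers the range was -0.31 to 0.42 in clone 4 and -0.017 to 0.050 in clone 5. In clone 4, pairs within the same epithelial set had correlations of 0.35 to 0.42. Pairs across the sets had -0.54 to -0.25. These values gave no sign of pairing by number, but deviations within groups of 3 cannot show that none existed. With a replicate block 4, 4, 9, 0 and 26 members passed in clone 4, clone 5, the mean, the difference and the clone comparison. The clone 5 response could not be fitted within either epithelial set. At 9 to 39 reads in a library, changes in TAGLN below the width of its interval were not detectable.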
